A study of Mus musculus with 7 samples.

Results

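Ccl22, Ccl3, Ccl4 and Ccl5 are 4 genes of the CC chemokine family, followed here through 7 RNA sequencing libraries of mouse B cells. They were chosen by name, partly on their FPKM values in these 7 libraries, so their levels and differences are a description with no test. Of 11633 genes named by position in any library, 9245 were assembled in all 7, and these included all 4 chemokine genes.

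The libraries came from wild-type primary B cells of C57BL/6 mice, and each of the 7 conditions was 1 library. One library was unstimulated (0 h). The other 6 were cells cultured for 8 h or 30 h with anti-IgM, with BAFF, or with both agents together. Anti-IgM is an antibody that cross-links the IgM antigen receptor, and BAFF is a tumour necrosis factor family cytokine on which B cells depend for survival. No culture without either agent was analysed here, and in comparisons with 0 h the effects of culture time and of the stimulus cannot be told apart. The labels used here give neither doses nor how the B cells were purified.

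Chemokines are small secreted proteins that direct the migration of cells carrying the matching receptor. CCL22 is a ligand of CCR4, which is carried by regulatory and helper T cells, and it is made by dendritic cells and by activated B cells. CCL3 and CCL4, also called macrophage inflammatory proteins 1 alpha and 1 beta, attract T cells and myeloid cells. CCL3 acts on CCR1, and both genes are quickly induced when the antigen receptor of a B cell is engaged. CCL5, or RANTES, binds CCR1 and CCR3 and is best known from T cells, natural killer cells and macrophages.

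The level of a gene is its FPKM, a fragment count scaled to transcript length and library depth, summed over its assembled transcripts. The interval deposited by the authors with each FPKM is given in brackets and reflects only the error of counting. A comparison was counted for a gene when its intervals were apart and log2(FPKM + 1) differed by 1 or more. Without replicates there was no test, and no difference could be set against a spread between samples. Depth, recovered from the deposited values, was 18.7 M to 28.6 M mapped fragments per library. The B cell markers Cd79b, Ms4a1, Pax5, Cd22 and Blk were assembled in all 7 libraries, and Cd79a and Ighm were named in none.

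The 4 chemokine genes followed 3 courses, shown in the bars of FPKM by library. Ccl22 was lowest in the unstimulated library and higher in every cultured one, most of all with BAFF at 30 h. Ccl3 and Ccl4 were low in both BAFF libraries, and Ccl4 was highest with anti-IgM at 8 h. Ccl5 was lower at 8 h than at 30 h with each stimulus.

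**Figure D1:**
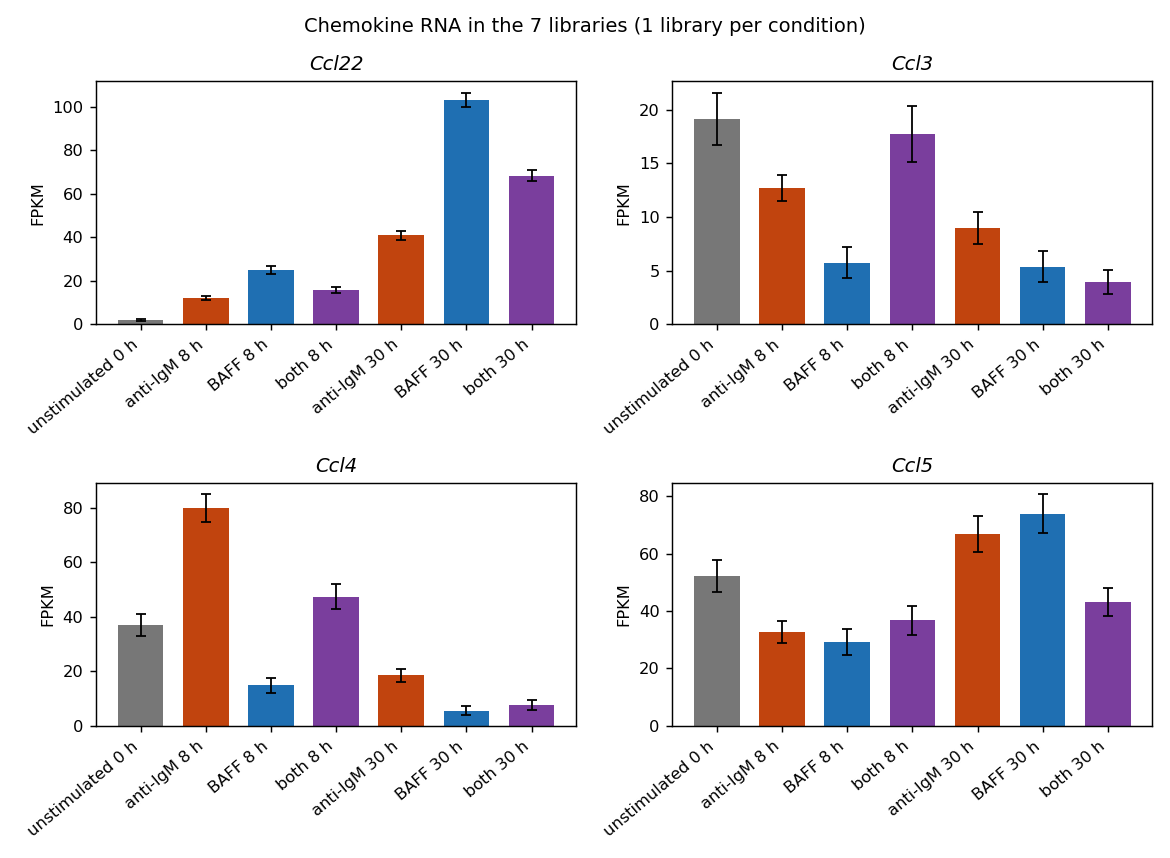
FPKM of Ccl22, Ccl3, Ccl4 and Ccl5 (vertical axes, each from 0) in the 7 libraries (horizontal axis), 1 bar per library, with the deposited interval as the error bar. Ccl22 reaches 103 FPKM with BAFF at 30 h, and Ccl4 reaches 79.8 with anti-IgM at 8 h.

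Ccl22 lies on the forward strand of mouse chromosome 8, from 94745684 to 94751388 in mm10, with 3 exons of 1811 bases in all. The 250 bases before its start are shown because Ccl22 had the largest differences of the 4 genes. The window is chr8:94745434-94745683 on the forward strand of GRCm38.p6, from RefSeq. Capitals mark matches to the kappaB motif, a loose form of the site bound by NF-kappaB (GGG, any 5 bases, CC), here on the opposite strand.
Ccl22: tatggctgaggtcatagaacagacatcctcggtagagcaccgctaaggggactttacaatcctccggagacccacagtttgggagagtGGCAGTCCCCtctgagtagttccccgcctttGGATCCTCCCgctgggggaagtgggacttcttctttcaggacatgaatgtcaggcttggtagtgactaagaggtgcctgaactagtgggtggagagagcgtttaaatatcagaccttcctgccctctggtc
Both matches were on the opposite strand, and they lay 162 to 153 and 131 to 122 bases before the start. The motif, searched on both strands, was present in 45.4% of the 27025 promoter windows of the same length, so a match is common. TGANTCA, the AP-1 motif, was found in 6.87% of all windows and GGAAA, the core of NFAT sites, in 55.6%. Neither was in the Ccl22 window.

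Ccl22 was at 1.78 FPKM in the unstimulated library (1.31 to 2.24), from 59 fragments. At 8 h it was at 11.99 with anti-IgM (10.95 to 13.02), 25.0 with BAFF (23.2 to 26.9) and 15.7 with both (14.3 to 17.1). At 30 h it was at 40.8 with anti-IgM (38.7 to 42.9), 103 with BAFF (99.8 to 106) and 68.3 with both (65.6 to 70.9), the BAFF value resting on 3858 fragments. None of the 7 intervals overlapped its neighbour in the order of levels. The order ran from BAFF at 30 h through both and anti-IgM at 30 h, then BAFF, both and anti-IgM at 8 h, to the unstimulated library. Among all genes assembled in a library, Ccl22 moved from percentile 4.26 in the unstimulated library to percentile 94.9 with BAFF at 30 h.

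Ccl22 was counted higher than in the unstimulated library in all 6 cultured libraries, by 6.74-fold with anti-IgM, 14.1-fold with BAFF and 8.83-fold with both at 8 h. At 30 h the ratios were 23.0, 58.0 and 38.4. Of all genes assembled in the 7 libraries, 0.573% were counted higher in all 6 of these comparisons, which share the unstimulated library. In the separate comparisons at 8 h, 10.8% of genes were counted higher with anti-IgM, 5.66% with BAFF and 12.4% with both. At 30 h the shares were 8.49%, 5.18% and 8.36%. Because Ccl22 was picked with these values in view, its counts are not set against those shares.

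BAFF went with more Ccl22 RNA than anti-IgM at both times. The ratio of BAFF to anti-IgM was 2.09 at 8 h, a log2 difference of 1.00 that lies at the limit of the counting rule, and 2.53 at 30 h, a difference of 1.32. Genes counted higher with BAFF than with anti-IgM made up 8.48% of those compared at 8 h and 4.71% at 30 h.

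The libraries with both agents stood between those with 1 agent. At 8 h the value with both agents was 1.31 times that with anti-IgM and 0.627 times that with BAFF, and at 30 h it was 1.67 times and 0.662 times. None of these 4 differences reached the 2-fold limit, in comparisons that counted 6.23% and 12.5% of all genes at 8 h and 5.41% and 8.11% at 30 h, but at both times the interval with both agents lay wholly between those with 1 agent. That order, with BAFF highest, was found in 3.83% of genes at 8 h and 2.8% at 30 h. Of 9366 genes assembled in all 6 cultured libraries, 0.662% showed it at both times. Adding BAFF to anti-IgM thus went with a higher value and adding anti-IgM to BAFF with a lower value of Ccl22, each time by less than 2-fold.

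Ccl22 was also counted higher at 30 h than at 8 h with every stimulus, by 3.41-fold with anti-IgM, 4.12-fold with BAFF and 4.35-fold with both. Of the same 9366 genes, 0.876% were counted higher in all 3 of these comparisons. The single comparisons had 8.01%, 3.67% and 5.65% of genes counted higher. All 11 differences of Ccl22 that were counted kept their direction under the 12 other ways of processing, and 9 of them were counted in each. Several of these ways could not change the values of Ccl22, as set out in the closing section. The 2 exceptions, BAFF against anti-IgM at 8 h and at 30 h, were lost when a log2 difference of 1.5 was asked for.

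The assembled Ccl22 transcript had the same 3 exons and splice junctions in all 7 libraries. Its assembled length ran from 1729 bases in the unstimulated library to 2036 bases with BAFF at 30 h, where it went 189 bases past the annotated end. Fragments scaled to depth alone (FPM), which are not divided by the assembled length but include all fragments of the assembled form, put the libraries in the same order as FPKM. They were 2.69 FPM in the unstimulated library, 18.8, 39.5 and 25.3 at 8 h with anti-IgM, BAFF and both, and 66.8, 188 and 113 at 30 h.

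The chemokine genes next to Ccl22 were not assembled. Cx3cl1, the gene of the membrane-bound chemokine fractalkine, starts 20.8 kb beyond Ccl22. Ccl17, whose product is the other ligand of CCR4, starts 59.1 kb beyond it. Neither had an assembled transcript of at least 300 bases in any of the 7 libraries, and Ccr4 itself had none. A gene that is not assembled may have RNA below what the assembly could join, and is not shown to be absent.

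The genes with a course most like that of Ccl22 were taken by Pearson correlation of log2(FPKM + 1) over the 7 libraries, among 4218 genes that were not chemokine ligands. Fhl3, a LIM domain protein gene, came first with r = 0.99, at 8.66 FPKM unstimulated, 17.0, 21.8 and 20.3 at 8 h with anti-IgM, BAFF and both, and 29.6, 38.5 and 36.2 at 30 h. Its order of libraries was that of Ccl22, over a narrower range. Next were Ppt1, a lysosomal thioesterase gene (0.95), Ttl, the tubulin tyrosine ligase gene (0.94), Slc7a6os (0.94) and Snrnp70, a spliceosome gene (0.94). With 7 libraries and 4218 genes, such values are a description of likeness only.

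Ccl3 and Ccl4 lie 13.2 kb apart on chromosome 11, on opposite strands. Ccl3 runs from 83647843 to 83649378 on the reverse strand (3 exons, 790 bases) and Ccl4 from 83662584 to 83664683 on the forward strand (3 exons, 660 bases). Their coding sequences, 279 bases each, were identical at 71.4% of 273 aligned bases, the highest share among the 6 pairs of the 4 genes (60.7% to 71.4%). No stretch longer than 13 bases was shared between any 2 of the 4 transcripts. No other GENCODE gene lay within 2000 bases of any of the 4.

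The 250 bases before the start of Ccl3 are shown because in 1 library the assembled transcript reached across them, as described below. The window is chr11:83649379-83649628 on the reverse strand of GRCm38.p6, from RefSeq, written along the gene. It held no match to the kappaB motif or TGANTCA, and 2 matches to GGAAA on the opposite strand, at 59 to 55 and 34 to 30 bases before the start. The table of promoters had no entry for Ccl4 or Ccl5.
Ccl3: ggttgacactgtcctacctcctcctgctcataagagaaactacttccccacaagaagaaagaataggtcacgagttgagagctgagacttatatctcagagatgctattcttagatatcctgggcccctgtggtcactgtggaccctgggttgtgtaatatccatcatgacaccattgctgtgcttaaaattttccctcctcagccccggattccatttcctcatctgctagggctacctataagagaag

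Ccl3 was at 19.1 FPKM in the unstimulated library (16.7 to 21.6). At 8 h it was at 12.7 with anti-IgM (11.5 to 13.9), 5.73 with BAFF (4.30 to 7.17) and 17.7 with both (15.1 to 20.3). At 30 h it was at 8.97 with anti-IgM (7.50 to 10.4), 5.38 with BAFF (3.92 to 6.85) and 3.92 with both (2.80 to 5.04). The unstimulated library and both agents at 8 h were highest and overlapped, and the BAFF libraries and both agents at 30 h were lowest, with intervals that overlapped from each to the next.

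Against the unstimulated library, Ccl3 was counted lower with BAFF at 8 h (log2 difference -1.58) and at 30 h with anti-IgM (-1.01), with BAFF (-1.66) and with both agents (-2.03). The shares of all genes counted lower were 4.29% with BAFF at 8 h and 7.3%, 4.09% and 7.78% at 30 h. Both agents at 8 h differed from the unstimulated library by -0.11 and were not counted. At 8 h Ccl3 was counted 3.09-fold higher with both agents than with BAFF (5.65% of genes were counted higher) and lower with BAFF than with anti-IgM (-1.02, 4.92% counted lower). At 30 h it was counted lower with both agents than with anti-IgM (-1.02, 3.28% counted lower), and with both agents it was counted lower at 30 h than at 8 h (-1.93, 6.98% counted lower).

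The value of Ccl3 with anti-IgM at 8 h rested on an unusual assembly, drawn in the map of assembled forms. There the first exon was extended by 643 bases before the annotated start, across the whole window printed above, and the transcript was 1404 bases long. With anti-IgM at 30 h the extension was 162 bases, and in the other 5 libraries it was 35 bases or less. FPKM is divided by the assembled length, whereas FPM is not and includes the fragments of the extension. In FPM, Ccl3 was highest with anti-IgM at 8 h (15.1, from 432 fragments), followed by the unstimulated library (11.01) and both agents at 8 h (9.89). With anti-IgM at 30 h it was at 6.45 FPM, with BAFF at 3.42 at 8 h and 2.63 at 30 h, and with both agents at 30 h at 2.03. The difference between anti-IgM at 8 h and the unstimulated library was -0.56 on FPKM, -0.59 with all pieces averaged over the annotated exons and 0.42 on log2(FPM + 1), none of them counted. For both agents against anti-IgM at 8 h the 3 measures gave 0.45, 0.47 and -0.56. FPM thus gave the opposite direction to FPKM for both differences. The average over the annotated exons is itself made from the assembled FPKM, so here it is no separate check on FPKM. On log2(FPM + 1) the lower value with anti-IgM at 30 h than at 0 h was no longer counted (-0.69), while anti-IgM at 30 h against 8 h (-1.11) and BAFF against anti-IgM at 30 h (-1.04) were. Several calls of Ccl3 lay at the limit. BAFF against anti-IgM at 8 h fell just short when all pieces over the exons were averaged (-0.998), and both agents against anti-IgM at 30 h fell short under both scalings of the libraries (-0.99).

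**Figure D2:**
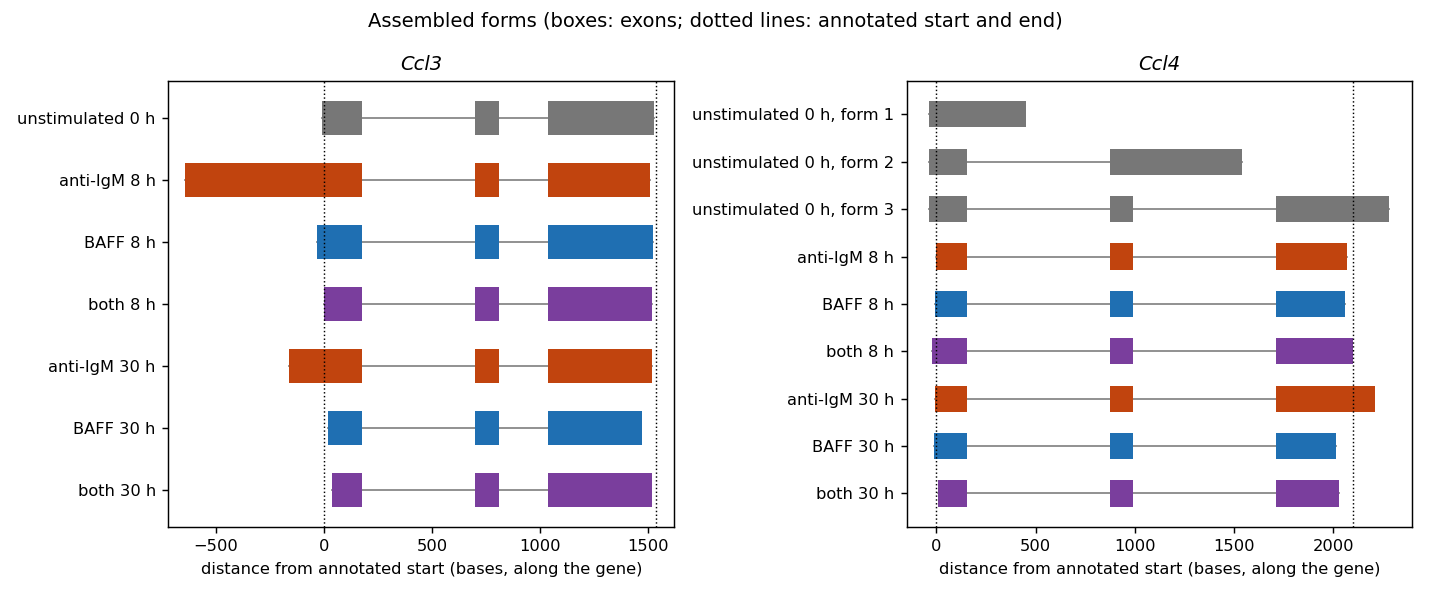
Assembled transcripts of Ccl3 and Ccl4 in each library, with exons as boxes and introns as lines, against the distance in bases from the annotated start along the gene. Ccl3 with anti-IgM at 8 h extends 643 bases before the start, and the unstimulated library has 3 forms of Ccl4.

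Ccl4 was at 36.9 FPKM in the unstimulated library (32.9 to 41.0). At 8 h it was at 79.8 with anti-IgM (74.7 to 85.0), 14.96 with BAFF (12.19 to 17.7) and 47.4 with both (42.7 to 52.0). At 30 h it was at 18.7 with anti-IgM (16.3 to 21.1), 5.64 with BAFF (3.92 to 7.36) and 7.81 with both (5.93 to 9.69). The anti-IgM library at 8 h was highest, with no overlap, and at each time BAFF alone was lowest, although at 30 h its interval overlapped that with both agents.

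Ccl4 differed between the 2 agents at both times. It was 5.33-fold lower with BAFF than with anti-IgM at 8 h and 3.31-fold lower at 30 h. Both differences were counted under all 12 other ways of processing, some of which could not change the values of Ccl4. Genes counted lower with BAFF than with anti-IgM made up 4.92% at 8 h and 3.99% at 30 h. With both agents at 8 h Ccl4 was counted 3.16-fold higher than with BAFF, and its value lay between those with 1 agent without overlap, an order with anti-IgM highest that 4.39% of genes showed. At 30 h both agents gave less Ccl4 than anti-IgM alone (-1.16, counted, where 3.28% of genes were counted lower) and differed from BAFF by 0.41 (not counted). Adding BAFF to anti-IgM was thus counted for neither gene at 8 h, and went with a counted lower value of each at 30 h.

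Ccl4 was counted lower at 30 h than at 8 h with every stimulus, with log2 differences of -2.04 with anti-IgM, -1.27 with BAFF and -2.46 with both. Of 9366 genes, 0.31% were counted lower in all 3 of these comparisons, and the shares in the first and second were 5.39% and 4.2%. For Ccl3 only the third of these differences was counted.

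Against the unstimulated library, Ccl4 was counted higher with anti-IgM at 8 h (1.09, where 10.8% of genes were counted higher) and lower with BAFF at 8 h (-1.25). It was also counted lower with BAFF and with both agents at 30 h (-2.52 and -2.11). Of all genes, 4.29% were counted lower with BAFF at 8 h, and at 30 h 4.09% with BAFF and 7.78% with both. Anti-IgM at 30 h (-0.95) and both agents at 8 h (0.35) were not counted. The unstimulated value was a sum over 3 assembled forms, a form of 489 bases that ends inside the first intron (10.9 FPKM), a form of 862 bases that ends inside the second intron (8.56) and the fully spliced form (17.5). In the 6 cultured libraries only a spliced form was assembled.

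The comparisons with 0 h changed with the form used. Taking the most abundant form alone, the difference at 8 h was 2.13 with anti-IgM, -0.21 with BAFF (not counted) and 1.39 with both (counted). Averaging all assembled pieces over the annotated exons gave 23.5 FPKM in the unstimulated library and -0.70 with BAFF (not counted). In FPM the anti-IgM difference was 0.70 and not counted, and it also fell below the limit when libraries were scaled to a common upper quartile (0.93) or by a median of ratios (0.95). At 30 h the difference with anti-IgM was counted under these 2 scalings (-1.04 and -1.02), but was 0.09 with the most abundant form and -0.32 over the annotated exons. The lower values at 30 h with BAFF and with both agents were counted in every variant, although with the most abundant form they were smaller, at -1.48 and -1.07.

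Genes whose course over the 7 libraries was most like that of Ccl3 were Cdk5r1 (r = 0.94), Dtx1, a Notch target gene (0.93), Lepre1 (0.93), Dusp2, a phosphatase gene that acts on MAP kinases (0.92), and Trib1 (0.91). Dusp2 was at 472 FPKM unstimulated, 217, 101 and 189 at 8 h with anti-IgM, BAFF and both, and 119, 65.7 and 67.3 at 30 h. For Ccl4 they were Blzf1 (0.98), Ifitm3, an interferon-induced membrane protein gene (0.96), Tmem51 (0.96), Myc, a growth regulator (0.95), and Gfi1, a transcriptional repressor gene (0.95). Myc was at 143 FPKM unstimulated, 263, 64.7 and 264 at 8 h, and 61.2, 29.8 and 59.9 at 30 h in the same order. Ccl4 and Myc differed in the library with both agents at 8 h, where Myc was as high as with anti-IgM and Ccl4 was not.

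Lists of stimulus-responsive genes were read beside the chemokines. Of 16 early genes of the antigen receptor, 7 were counted lower and 0 higher with BAFF than with anti-IgM at 8 h, of 15 compared (median -1.09, against 0.05 for all genes). Fos, Jun, Fosb, Egr1, Nr4a1 and Junb, all immediate-early transcription factor genes, were highest in the unstimulated library. Fos, for example, was at 627 FPKM there and 7.22 or less in every cultured library. Other genes of the list went the other way. With anti-IgM at 8 h, Egr2 was at 67.2 FPKM (24.4 unstimulated) and Nr4a3 at 29.1 (4.36 unstimulated). Both were counted higher, where 10.8% of all genes were. Egr3, Myc and Nfatc1 were also higher there than at 0 h, but were not counted. Of 15 NF-kappaB response genes, 14 were compared in the same contrast, with 1 counted higher and 2 lower (median 0.06). Among these, Nfkb2, the precursor of the p52 subunit, was at 75.3 FPKM unstimulated and, at 8 h, 147 with anti-IgM and 184 with BAFF. Rel, the c-Rel gene, was at 39.2 unstimulated and, at 8 h, 140 with anti-IgM and 85.6 with BAFF. Neither was counted between the agents at 8 h. For the list counts of BAFF against anti-IgM at 8 h, 8.48% of all genes were counted higher and 4.92% lower.

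Messenger RNAs of quickly induced cytokines often carry ATTTA repeats behind the coding sequence, which bind decay factors. Ccl3 had 5 such pentamers in a 3′ untranslated region of 409 bases (12.2 per kb, percentile 99.4 of 20515 genes) and Ccl4 had 2 in 302 bases (6.62 per kb, percentile 96.1). Ccl22 had 2 in 1813 bases (1.10 per kb, against a median of 1.27 over all genes), and Ccl5 had none in 199 bases. The pentamer occurred at least once in 65.9% of the regions. The stretch below is 30 bases of Ccl3 with ATTTA in capitals, from chr11:83648075-83648104 on the reverse strand (GRCm38), shown because a pair of pentamers lies end to end there. Decay was not measured here.
Ccl3: ttgaaattttATTTAATTTAatcctattgg

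Ccl5 lies on the reverse strand of chromosome 11, from 83525779 to 83530518, with 3 exons of 531 bases, 117 kb from Ccl3. It was at 52.2 FPKM in the unstimulated library (46.7 to 57.8). At 8 h it was at 32.6 with anti-IgM (28.8 to 36.4), 29.1 with BAFF (24.6 to 33.7) and 36.8 with both (31.7 to 41.8). At 30 h it was at 66.9 with anti-IgM (60.7 to 73.1), 73.8 with BAFF (67.0 to 80.6) and 43.2 with both (38.3 to 48.0). The 3 libraries at 8 h overlapped from each to the next, as did anti-IgM and BAFF at 30 h, and both agents at 30 h overlapped both the unstimulated library and both agents at 8 h.

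Ccl5 was not counted as different from the unstimulated library in any of the 6 comparisons (-0.82 to 0.49), nor between stimuli at either time. It was counted higher at 30 h than at 8 h with BAFF (2.53-fold, where 3.67% of genes were counted higher) and with anti-IgM (2.05-fold, 8.01%), but not with both agents (1.17-fold). The anti-IgM difference was 1.02 on FPKM and 0.89 on log2(FPM + 1), so that it fell short on that scale. At 30 h the value with both agents was 0.645 times that with anti-IgM and 0.585 times that with BAFF, below the 2-fold limit but without overlap of intervals. Ccl5 was the only one of the 4 genes with both agents below each of the single agents at 30 h with no overlap, since for Ccl3 the interval with both agents overlapped that with BAFF.

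The sum of the listed macrophage markers was also lower at 8 h than at 0 h and at 30 h, as plotted beside Ccl5, but not every marker was. The summed FPKM of 13 listed macrophage and monocyte symbols, of which Emr1 and Adgre1 are the same gene, was 252 unstimulated (11 assembled), 21.4, 20.5 and 12.1 at 8 h with anti-IgM, BAFF and both (5, 6 and 5 assembled), and 64.5, 105 and 54.5 at 30 h (9, 9 and 8 assembled). Lyz2, the lysozyme gene of myeloid cells, and Cd5l, a secreted macrophage protein gene, were among the 5 genes most like Ccl5 (r = 0.92 and 0.93), with Zcchc3 (0.96), Pde4a (0.94) and Tnfrsf13b, which encodes the BAFF receptor TACI (0.91). Lyz2 was at 16.3 FPKM unstimulated, 2.52, 2.67 and 2.01 at 8 h, and 16.8, 19.8 and 9.63 at 30 h. Emr1, which encodes the macrophage protein F4/80, was at 32.8 FPKM unstimulated, 5.44 to 11.3 at 8 h and 25.8 to 48.2 at 30 h. Most of the list stayed lower at 30 h than at 0 h, unlike Ccl5, with 7 of 9 compared counted lower with anti-IgM, 5 of 9 with BAFF and 6 of 8 with both. The shares of all genes counted lower were 7.3%, 4.09% and 7.78%. C1qa, a complement gene, was at 40.3 FPKM unstimulated and 1.77 to 5.08 at 30 h, and Vcam1, an adhesion molecule gene, was at 48.6 and 2.37 to 5.23. The part of these markers in the Ccl5 values was not tested, and in bulk RNA fewer cells of a type and less RNA per cell cannot be told apart.

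**Figure D3:**
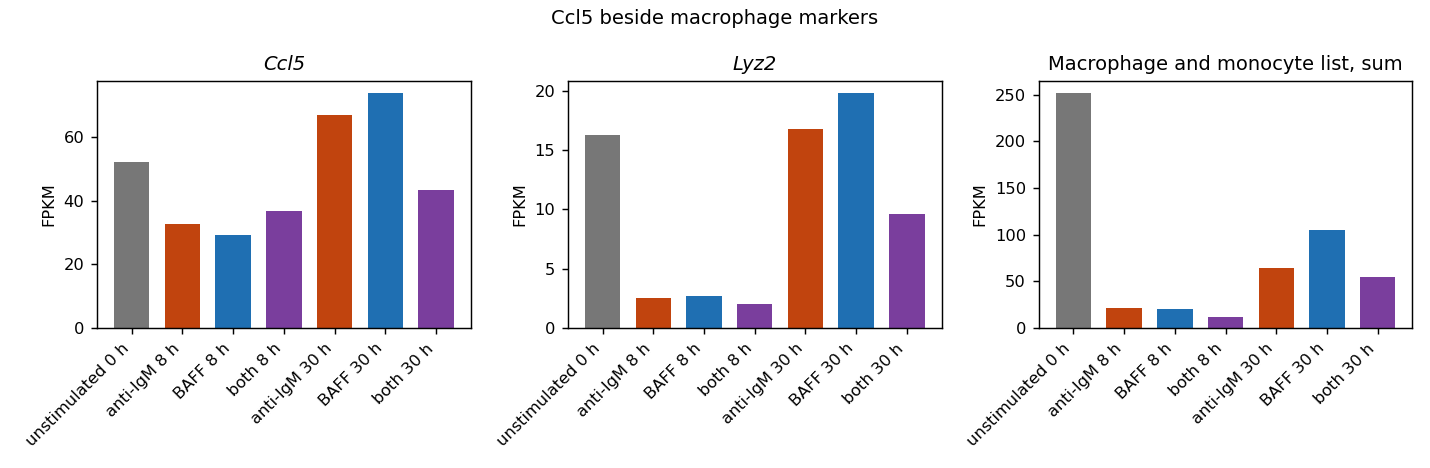
FPKM (vertical axes, from 0) of Ccl5, of Lyz2 and summed over the macrophage and monocyte markers in the 7 libraries (horizontal axis). All 3 panels are lower at 8 h than at 0 h and than at 30 h with the same stimulus, and the marker sum stays below its 0 h value of 252 at 30 h.

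Markers of other cell types that can make these chemokines were mostly not assembled. This does not show those cells to be absent, since the B cell markers Cd79a and Ighm were also named in no library. Of 10 T cell markers, Cd3d, Cd3e, Cd8b1, Trac and Thy1 were named in no library, and Cd3g, Cd4 and Cd8a in 1 or 2. Lck (14.9 to 93.8 FPKM) and Cd5 were assembled in all 7, and B cells can carry both. Of 9 natural killer cell markers, only Prf1 was assembled in all 7 libraries (1.01 to 2.58 FPKM), and Ncr1, Klrb1c, Klre1, Gzma, Gzmb and Eomes were in none. None of 8 neutrophil and 6 basophil or mast cell markers was assembled in any library. Dendritic markers summed to 47.7 FPKM unstimulated and 11.4 to 21.3 in the cultured libraries, with 6 of 9 assembled at 0 h and 2 to 5 in culture. Itgax, which encodes CD11c, fell from 16.5 FPKM unstimulated to 1.88 with anti-IgM at 8 h and was not assembled in the other 5 libraries. Flt3, a cytokine receptor gene and the dendritic marker assembled in all 7, was at 6.84 FPKM unstimulated and 6.43 to 11.3 in culture, and Zbtb46, a transcription factor gene, was at 5.96 and, in the 5 cultured libraries where it was assembled, 3.76 to 12.7. Neither was counted against 0 h. Batf3, also on the list, was at 8.31 FPKM unstimulated and 2.40 to 5.11 in the cultured libraries where it was assembled. It was counted lower with anti-IgM and with BAFF at 8 h and with both at 30 h. Those comparisons counted 21.3%, 9.95% and 16.1% of all genes either way. Clec9a (7.42 FPKM) and Cd209a (2.68) were assembled only in the unstimulated library. The part of dendritic cells in the Ccl22 values was not tested.

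Few other chemokine genes had RNA that could be assembled, as the map of ligand and receptor genes shows. Of 36 ligand genes listed, 14 were assembled in any library and 6 in all 7, namely the 4 described here, Cxcl16 and Ccl27a. Cxcl16, which encodes a membrane-bound ligand of CXCR6, was at 3.99 FPKM unstimulated, 15.01, 8.14 and 10.94 at 8 h with anti-IgM, BAFF and both, and 12.1, 18.0 and 8.32 at 30 h, and was counted higher in 4 of 6 comparisons with 0 h. Those 6 comparisons each counted between 5.18% and 12.4% of all genes higher. Ccl27a, a ligand of CCR10, was counted lower with BAFF at 30 h (1.42, against 5.98 unstimulated). Xcl1, the gene of lymphotactin, was chosen after its values were seen. It was assembled in the 4 libraries with anti-IgM, at 6.29 and 5.44 FPKM at 8 h without and with BAFF and 3.74 and 3.76 at 30 h, and not in the unstimulated or the 2 BAFF libraries. On chromosome 11, Ccl9 was assembled in 4 libraries at 1.27 to 3.11 FPKM and Ccl6 only in the unstimulated one, at 2.03.

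The ligand list as a whole did not move one way. Against the unstimulated library, 3 of 8 ligand genes compared were counted higher and 0 lower with anti-IgM at 8 h (median -0.12, against 0.05 for all genes), where 10.8% of all genes were counted higher. With BAFF at 30 h, 2 were counted higher and 3 lower of 8 (median -0.21, against 0.07), where 5.18% of all genes were counted higher and 4.09% lower. With BAFF against anti-IgM the counts were 1 higher and 2 lower at each time, of 8 and 7 compared, against 8.48% of all genes higher and 4.92% lower at 8 h and 4.71% and 3.99% at 30 h. The 4 chemokines described here belong to that list and make up most of these counts.

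**Figure D4:**
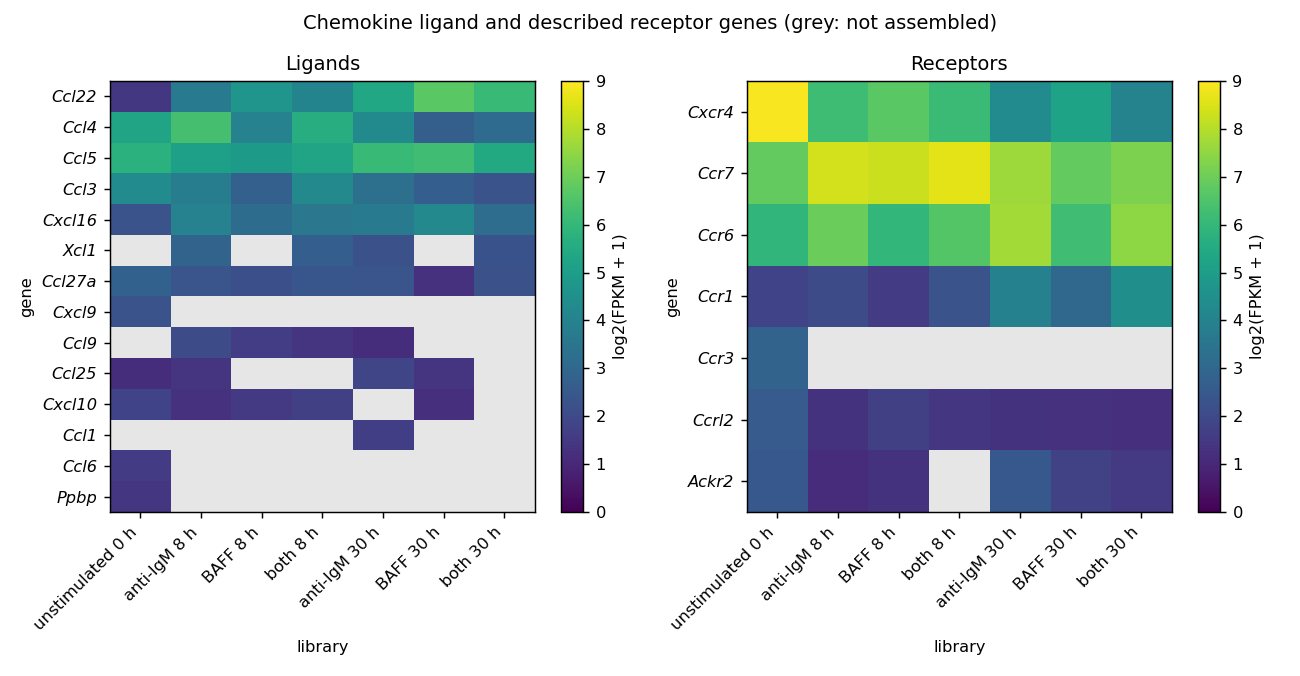
log2(FPKM + 1) of the 14 chemokine ligand genes assembled in any library and of 7 of the receptor genes described in the text (rows) in the 7 libraries (columns), with grey where a gene was not assembled. Cxcr5 is not drawn. Ccl22 brightens to 103 FPKM with BAFF at 30 h, and Cxcr4 darkens from 479 FPKM unstimulated.

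Ccr1 and Ccr3, which encode receptors for some of these chemokines, had low levels. Ccr1, a receptor for CCL3 and CCL5, was at 2.55 FPKM unstimulated, 3.26, 1.97 and 3.88 at 8 h, and 14.7, 7.05 and 21.4 at 30 h with anti-IgM, BAFF and both. It was counted higher than unstimulated in all 3 libraries at 30 h, where 8.49%, 5.18% and 8.36% of all genes were counted higher. Ccr3 was assembled only in the unstimulated library (6.26 FPKM).

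The abundant receptors were those that place B cells within lymphoid organs. Cxcr4, the receptor for CXCL12, was at 479 FPKM unstimulated and between 15.2 and 103 in the cultured libraries, counted lower in all 6 comparisons with 0 h. Ccr7, the receptor for the T cell zone chemokines, was at 114 unstimulated and 313 to 397 at 8 h. Ccr6, the receptor for CCL20, was at 59.9 unstimulated and highest with anti-IgM at 30 h (212). Cxcr5 was at 71.0 unstimulated and 57.3 to 101 in the cultured libraries, and was not counted against 0 h. Ccrl2 and Ackr2, which bind chemokines without usual signalling, were counted lower in 5 and 2 of 6 comparisons. These 6 comparisons with 0 h each counted between 9.27% and 21.3% of all genes in either direction. Of 23 receptor genes, 12 were assembled in any library and 7 in all 7.

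The plot of all 15 comparisons sets the 4 genes side by side. Ccl22 was counted in 11 of 15, Ccl4 in 11, Ccl3 in 8 and Ccl5 in 2. The counted differences of Ccl22 were all towards the cultured, the later or the BAFF library, and between libraries of the same time those of Ccl3 and Ccl4 were all lower where BAFF was alone or was added to anti-IgM. The share of all genes counted either way against 0 h was 21.3% with anti-IgM, 9.95% with BAFF and 21.3% with both at 8 h, and 15.8%, 9.27% and 16.1% at 30 h. BAFF against anti-IgM counted 13.4% of genes at 8 h and 8.69% at 30 h. From 8 h to 30 h, 13.4% were counted with anti-IgM, 7.87% with BAFF and 12.6% with both.

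**Figure D5:**
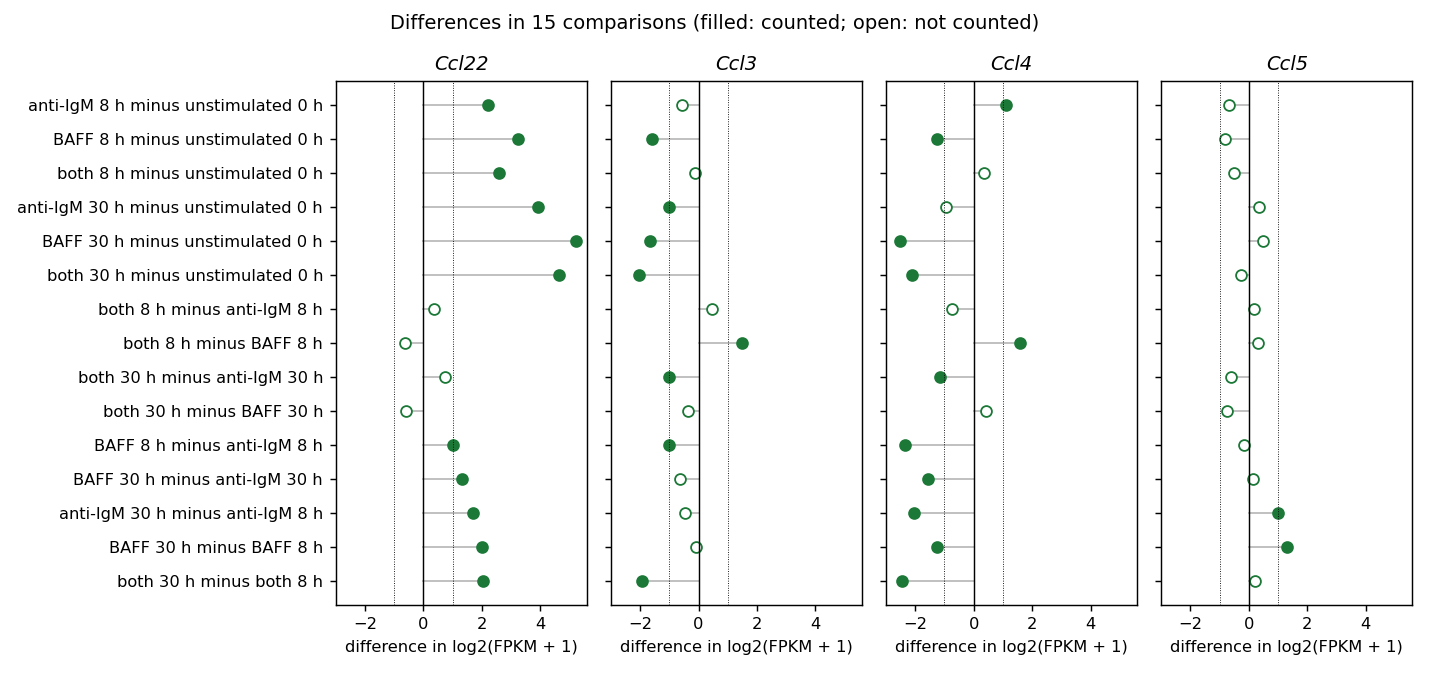
Difference in log2(FPKM + 1) (horizontal axis) of each of the 4 genes in 15 comparisons (rows), first library minus second, filled where counted and open where not, with dotted lines at -1 and 1. Every filled point of Ccl22 lies to the right of 0, and every filled point of Ccl5 is a comparison of 30 h with 8 h.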

How the data were processed

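RNA was measured by poly-dT primed Illumina TruSeq sequencing, per the labels' protocols. Per the submitters' processing notes, CASAVA 1.8.2, TopHat2 2.0.5, Bowtie2 2.0.0.7, Cufflinks 2.0.2 and mm10 were used. The authors deposited FPKM, its interval and coverage for transcripts assembled in each library separately, and a merged transcript set without values. How libraries were scaled is not given in the sources used here.

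Here a transcript took the gene name of the merged set with which it shared most exon bases on the same strand. FPKM was summed over transcripts of at least 300 bases, since shorter ones held 66.6% to 74.4% of the FPKM, and interval half-widths were added in quadrature. Intervals were read as 2 SD of counting error. The fragments recovered from them were whole within 0.02 for 92.8% to 94.0% of the transcripts checked, 9210 to 11043 per library. Only transcripts of at least 300 bases that were the sole form and lay in a set range of fragment counts were checked. The recovered fragments gave the depth and the fragments scaled to depth (FPM). Each of the 15 comparisons took the genes assembled on both sides that reached 1 FPKM on either, with a pseudocount of 1. There were no replicates, so no p-value was computed.

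The genes and lists were chosen with earlier results of these data known. Named genes were the 4 chemokines, their listed neighbours, up to 6 genes of each list counted against 0 h, and the 5 most alike in course. Genes compared for likeness had a highest FPKM of at least 5 and a log2 range of at least 1. Chemokine ligands, receptor segments, small RNAs and predicted genes were left out of them. Outside this rule, Egr2, Egr3, Nr4a3, Nfatc1, Ccr3, Ccr4, Cxcr5, Xcl1 and several cell type markers were also named. Alternatives covered the pseudocount, low values, the size of the difference, intervals, 2 scalings, transcript length, the most abundant form, pieces over exons, and genes not assembled as 0; FPM was chosen after seeing the data. Searching the 3′ untranslated regions for ATTTA was also chosen after seeing the data. The rule was tested on simulated counting error only, which leaves out variation between cultures. Python 3.11.15, numpy 2.4.6, pandas 2.3.3, biopython 1.88 and matplotlib 3.10.9 were used, with GENCODE M21 for untranslated regions and RefSeq (GRCm38.p6) for promoters.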

Additional observations from a re-analysis of the deposited data

Results flagged for a closer look

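Ccl4 was counted in opposite directions against the unstimulated library with the 2 agents at 8 h, by 1.09 on the log2 scale with anti-IgM and -1.25 with BAFF. The 2 comparisons share the unstimulated library and each condition was 1 library, so the opposite directions were not tested. Their values under other processing are given with the Ccl4 results.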

How the results depend on the processing

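No paired analysis was possible because each condition was 1 library and the labels give no replicate numbers. No counted difference of the 4 genes changed direction under the 12 alternatives. Asking for a log2 difference of 1.5 left 4 of 8 counted comparisons for Ccl3, 7 of 11 for Ccl4 and 0 of 2 for Ccl5. The same setting left 23 of 40 counts on the ligand list, 17 of 40 on the receptor list and 5937 of 17969 over all genes and comparisons. Entering genes that were not assembled as 0 raised these 3 totals to 92, 64 and 31426, because more genes entered. In FPM, chosen after seeing the data, Ccl5 was counted in 1 comparison. Of 180 values per gene (15 comparisons under 12 alternatives), 178 kept their side of the limit for Ccl22, 170 for Ccl3, 168 for Ccl4 and 177 for Ccl5. Part of this agreement was fixed in advance. Changing the filter on low values, dropping the minimum length and entering genes not assembled as 0 altered no value of these 4 genes. Taking the most abundant form altered only Ccl4. Dropping the intervals could only add calls, and a larger limit could change no direction. Scaling moved the median of all genes by -0.20 at most, for both agents at 8 h against 0 h. The intervals leave out variation between cultures, which 1 library per condition cannot show, and the low values of Ccl3 and Ccl4 at 30 h rest on as few as 43 fragments.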
